A study of Mus musculus with 5 samples.

Results

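Of the 6395 genomic sites listed for the zinc finger transcription factor ZFP24, also called ZFP191, 619 had their centre inside protein-coding sequence. These coding-exon peaks comprised 252 of the 1752 peaks listed for differentiated mouse oligodendrocytes (OLG) and 367 of the 4643 peaks listed for oligodendrocyte progenitor cells (OPC). A peak was taken as a member when its central base lay in a CDS interval, the translated part of an exon, of a protein-coding gene in the GENCODE M21 basic annotation of mm10. Another 194 OLG peaks and 334 OPC peaks touched a CDS interval with their edge but had their centre outside it, and these were not members. The members lay in 248 genes in the OLG list and in 357 genes in the OPC list, which is 1.14% and 1.64% of the 21755 protein-coding genes annotated.

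Oligodendrocytes are the glia that wrap axons of the central nervous system in myelin, and they arise from dividing progenitors. ZFP24 is needed for these cells to make myelin in the mouse, and it is known to bind tandem repeats of the letters TCAT. Transcription factors are most often mapped to promoters and enhancers, and the exon just downstream of a promoter can lie in the same GC-rich stretch, called a CpG island.

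The peaks came from chromatin immunoprecipitation and sequencing (ChIP-seq) with an antibody against ZNF24, the human name of the protein, read as 75 nt single-end reads. There were 5 libraries, 1 each of wild-type OLG, Zfp191-null OLG, wild-type OPC, Zfp191-null OPC and a pooled chromatin input. All cells came from the brains of C57BL/6 mice at postnatal day 7, wild-type or Zfp191-null, and were isolated by immunopanning. OLG were obtained by 5 days of culture with triiodothyronine (40 ng/ml) and no PDGF. Null cells and input are named as controls in the series' design, but how they entered the peak calling is unknown. The labels name each list for both the wild-type and the Zfp191-null library of its cell type, and it was taken here as the list of wild-type peaks. Both lists may rest on the same input library, and how strong the signal was in null cells and input was not analysed here. With 1 library per group there is no replicate check, the depth is unknown because the lists give positions only, and each 95% interval below covers counting error over peaks only. Intervals of shares are exact (Clopper-Pearson). Those of odds ratios come from the conditional distribution of the counts and stand beside the sample odds ratio. All OLG peaks were 221 bp wide and all OPC peaks 209 bp. No expression was measured, so the labelled cell types could not be checked against their marker genes.

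All or part of the bases under 7 of the peaks are printed from the GRCm38.p6 reference genome (RefSeq), the sequence of mm10, 5′ to 3′ on the strand of the gene. The 3 peaks in the first group are shown because they were the only coding-exon peaks of either list with a tandem TCAT tract, the known ZFP24 sequence, of at least 12 bases in the 200 bp around the centre. They lay on chr13:63156619-63156827 (plus strand), chr17:47689349-47689557 (minus strand) and chr5:124405489-124405697 (minus strand). Capitals mark the tract, which reads as TCAT repeats in 2010111I01Rik and Sbno1 and as the reverse complement, ATGA repeats, in Prickle4.
2010111I01Rik (OPC): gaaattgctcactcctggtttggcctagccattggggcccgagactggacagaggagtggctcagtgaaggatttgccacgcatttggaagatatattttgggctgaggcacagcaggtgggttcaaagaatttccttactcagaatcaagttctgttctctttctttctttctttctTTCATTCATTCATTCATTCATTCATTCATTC
Prickle4 (OPC): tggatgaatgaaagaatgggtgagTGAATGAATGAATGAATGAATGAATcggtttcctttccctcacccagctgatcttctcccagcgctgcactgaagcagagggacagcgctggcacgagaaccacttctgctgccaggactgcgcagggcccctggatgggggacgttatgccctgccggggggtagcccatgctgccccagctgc
Sbno1 (OPC): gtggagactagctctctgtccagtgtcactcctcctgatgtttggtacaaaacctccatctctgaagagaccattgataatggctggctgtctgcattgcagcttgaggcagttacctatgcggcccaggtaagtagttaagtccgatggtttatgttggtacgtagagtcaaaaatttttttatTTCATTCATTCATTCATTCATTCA
All 3 tracts lay in the intron beside the exon, with 0 of their bases in coding sequence.

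The peaks in the second group lie in exons dense in CpG, the dinucleotide that marks CpG islands, which the capitals show. They were picked for their genes, not as typical of the members in exon position. Sox4, Olig1 and Sox2 are genes of transcription factors that act in neural and oligodendrocyte progenitors, and Zic2, a zinc finger gene of neural development, had a peak in both lists. The Sox4 bases are those of the OLG peak on chr13:28952203-28952423 (minus strand), and the others those of OPC peaks on chr16:91270048-91270256 (Olig1, plus strand) and chr3:34650912-34651120 (Sox2, plus strand). For Zic2 the 130 bases common to the OLG and the OPC peak are given, chr14:122475986-122476115 (plus strand).
Sox4 (OLG): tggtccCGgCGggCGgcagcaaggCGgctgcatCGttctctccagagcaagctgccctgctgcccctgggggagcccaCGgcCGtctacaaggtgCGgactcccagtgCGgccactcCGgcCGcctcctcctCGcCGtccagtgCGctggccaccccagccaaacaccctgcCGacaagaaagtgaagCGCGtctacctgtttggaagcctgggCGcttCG
Olig1 (OPC): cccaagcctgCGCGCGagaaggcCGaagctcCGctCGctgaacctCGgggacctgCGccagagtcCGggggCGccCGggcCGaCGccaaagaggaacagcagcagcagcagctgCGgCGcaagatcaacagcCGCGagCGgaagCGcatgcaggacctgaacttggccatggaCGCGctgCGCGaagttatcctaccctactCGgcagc
Sox2 (OPC): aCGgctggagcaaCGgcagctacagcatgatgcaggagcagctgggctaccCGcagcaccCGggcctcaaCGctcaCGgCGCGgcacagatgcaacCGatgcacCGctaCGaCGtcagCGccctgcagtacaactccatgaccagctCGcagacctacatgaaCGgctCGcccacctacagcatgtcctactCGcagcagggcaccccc
Zic2 (OLG): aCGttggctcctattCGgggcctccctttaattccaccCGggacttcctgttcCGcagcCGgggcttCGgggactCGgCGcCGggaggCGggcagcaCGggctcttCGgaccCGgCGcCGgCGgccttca
These stretches held 19 CpG at Sox4, 24 at Olig1, 17 at Sox2 and 16 at Zic2, and none held a TCAT tract.

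Coding exons held a larger part of the OLG list than of the OPC list. The share was 14.4% in OLG (95% interval 12.8 to 16.1) and 7.90% in OPC (7.14 to 8.72), and the odds ratio was 1.96 (1.64 to 2.33). The test was Fisher's exact test, two-sided, and p-values were adjusted over 8 tests by the Benjamini-Hochberg method (exact adjusted p = 1.79e-13 here). Coding bases made up 1.39% of the sequenced bases of chromosomes 1 to 19 and X. The test compares 2 lists of peaks, not replicated conditions.

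The ratio between the lists was larger away from transcript starts than near them. Among peaks over 1 kb from the nearest start of a protein-coding transcript, 86 of 914 OLG peaks, or 9.41% (7.59 to 11.5), and 100 of 2997 OPC peaks, or 3.34% (2.72 to 4.04), were centred in coding exons, with an odds ratio of 3.01 (2.20 to 4.10, exact adjusted p = 5.82e-12). Within 1 kb of a start, the shares were 166 of 838 OLG peaks, or 19.8% (17.2 to 22.7), and 267 of 1646 OPC peaks, or 16.2% (14.5 to 18.1). There the odds ratio was 1.28 (1.02 to 1.59, exact adjusted p = 0.0465). This value lies close to the threshold of 0.05. The 8 tests adjusted together include those of the TCAT repeat below, whose outcome the member rule largely decided. Counting them lowers the adjusted value near starts, so that call is weak. Whether the ratios over and within 1 kb differ was not tested. Among peaks with a GC content of 55% or more around the centre, a restriction chosen after seeing the data, the ratio was 2.41 over 1 kb (exact adjusted p = 3.68e-05) and 1.10 within 1 kb (exact adjusted p = 0.527), so the call near starts was lost. That call was also lost with a distance of 500 bp (1.23, exact adjusted p = 0.136) and when each list was kept to its lower-numbered part (1.26, exact adjusted p = 0.161). Coding bases formed 1.21% of all bases over 1 kb from a start and 9.83% of those within 1 kb.

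First coding exons, which carry the start codon and lie nearest the promoter, held most of the peaks in both cell types. A first coding exon, in a transcript with several, held 142 of 252 OLG members, or 56.3%, and 223 of 367 OPC members, or 60.8% (55.6 to 65.8), while such exons make up 10.1% of coding bases. The position was judged in the transcript with the longest coding sequence at the centre. Middle coding exons were the reverse, with 15.5% of OLG members and 19.9% of OPC members against 65.5% of coding bases. Last coding exons held 27 OLG peaks, or 10.7% (7.18 to 15.2), and 22 OPC peaks, or 5.99% (3.79 to 8.94), against 14.9% of coding bases. Transcripts whose whole coding sequence lies in a single exon held 44 OLG peaks, or 17.5% (13.0 to 22.7), and 49 OPC peaks, or 13.4%, against 9.53%.

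**Figure D1:**
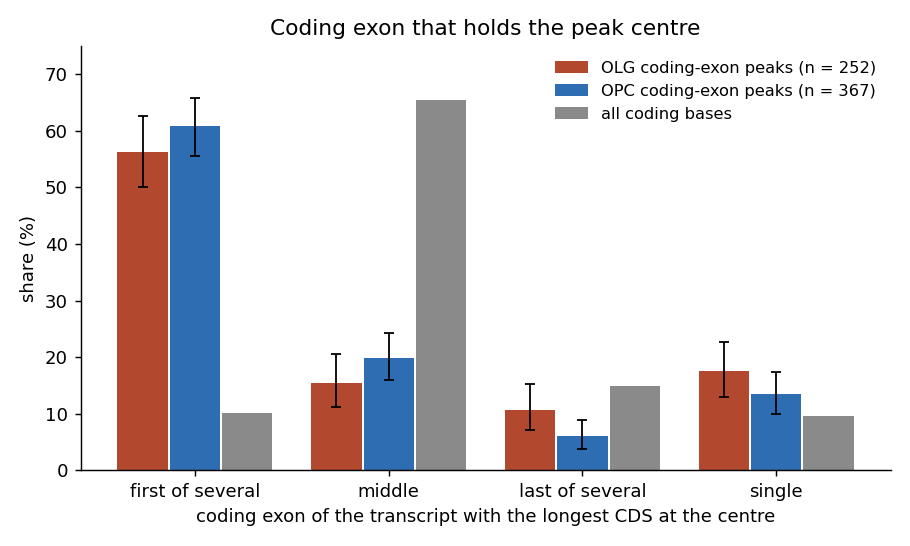
Share of coding-exon peaks (%, y axis) by the coding exon that holds the peak centre (x axis), for 252 OLG peaks (red), 367 OPC peaks (blue) and all coding bases of the annotation (grey), with Clopper-Pearson 95% intervals as error bars. First coding exons hold 56.3% of the OLG and 60.8% of the OPC members against 10.1% of coding bases.

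Neither exon share passed the test between the lists. The first-exon share gave an odds ratio of 0.834 for OLG against OPC (0.594 to 1.17, exact adjusted p = 0.281), and the single-exon share 1.37 (0.858 to 2.19, exact adjusted p = 0.195). The intervals leave room for differences in either direction. Among members with a GC of 55% or more, again chosen after seeing the data, the first-exon share was lower in OLG, with 137 of 240 against 211 of 313 in OPC (odds ratio 0.643, 0.447 to 0.925, exact adjusted p = 0.0263).

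Per megabase of coding sequence, first coding exons held 39.6 OLG peaks and 62.2 OPC peaks, whereas middle coding exons held 1.67 and 3.13. Last coding exons stood between these, with 5.10 OLG peaks and 4.15 OPC peaks per Mb, and single coding exons had 13.0 OLG peaks and 14.4 OPC peaks per Mb. Last coding exons were the only one of these 4 classes with more OLG than OPC peaks before scaling, although the OLG list is the shorter one. Scaled per 1000 peaks of the list, the density was higher in OLG in all 4 classes. It was 22.6 against 13.4 in first, 0.953 against 0.673 in middle, 2.91 against 0.894 in last and 7.39 against 3.11 in single coding exons.

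Peaks crowded around the start codon. The centre lay a median of 289 bp downstream of the start codon in OLG and 220 bp in OPC, counted along the genome with introns included, and 575 and 448 bp downstream of the start of the transcript. In 77 OLG members (30.6%) and 121 OPC members (33.0%) the peak itself spanned the start codon. The whole peak fitted inside the exon for 104 OLG members (41.3%) and 116 OPC members (31.6%), so that the remainder also covered flanking sequence. Counted along the coding sequence alone, the median position was 18.5% of the way in OLG and 13.8% in OPC.

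Of the members, 65.9% in OLG (59.7 to 71.7) and 72.8% in OPC (67.9 to 77.2) lay within 1 kb of the nearest start, an odds ratio of 0.723 (0.504 to 1.04, exact adjusted p = 0.0992). With GC of 55% or more this ratio was 0.492 (0.326 to 0.742, exact adjusted p = 0.00186), lower in OLG. Peaks of the same lists centred elsewhere lay within 1 kb of a start in 44.8% of OLG cases and 32.2% of OPC cases, and 14.7% of all coding bases do so. A larger share of coding-exon peaks than of the other peaks of their list thus lay near starts, though no test was made of this. The nearest start was that of the member's own gene for 160 of the 166 OLG members within 1 kb and for 254 of the 267 OPC members. Exceptions among middle and last exons were few, at 3 OLG and 5 OPC peaks. One was Ttc36, whose last coding exon held an OLG peak 225 bp and an OPC peak 263 bp from the start of the neighbouring gene Tmem25. Another was the OLG peak in exon 5 of Iqschfp, which lay 602744 bp from the start codon of that long read-through transcript and 849 bp from the start of Schip1, with which it overlaps.

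Peak density was highest within 500 bp of a start and lower farther away. In the first 250 bp there were 66 OLG and 132 OPC peaks, which is 35.9 and 71.8 per Mb of coding sequence. From 251 to 500 bp the OLG density was 45.5 per Mb and the OPC density 58.3, and from 501 to 1000 bp OLG had 36 and OPC 53 peaks. So close to starts the longer OPC list had the higher density, with its maximum nearest the start, while that of OLG lay in the next bin. The densities met from 1001 to 2000 bp, at 11.7 OLG and 11.2 OPC peaks per Mb, and from 2001 to 5000 bp, where both lists had 23 peaks and 5.18 per Mb. From 5001 to 10000 bp OLG had 19 peaks (3.68 per Mb) and OPC 12 (2.32 per Mb). Beyond 10 kb the order turned, with 20 OLG peaks (1.07 per Mb) and 42 OPC peaks (2.24 per Mb). Scaled to the size of each list, OLG was the higher in all 7 bins.

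**Figure D2:**
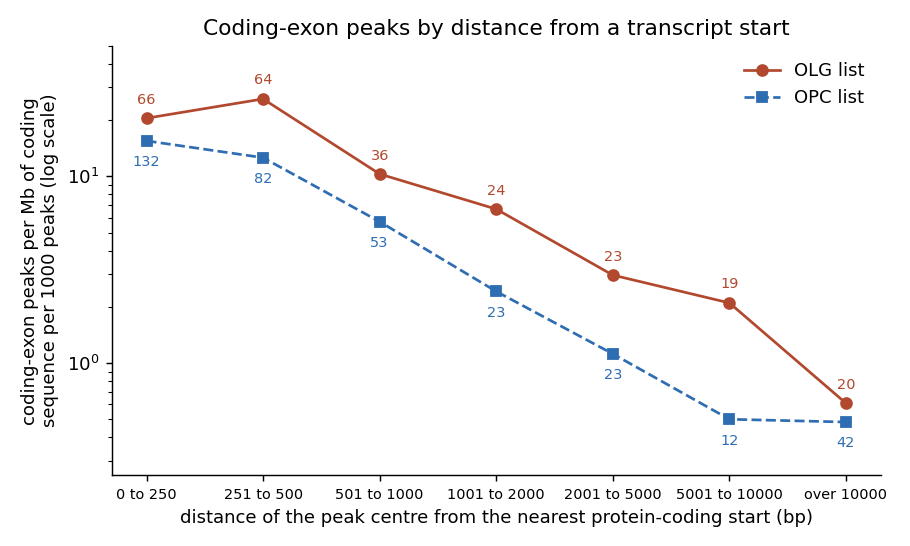
Density of coding-exon peaks per Mb of coding sequence and per 1000 peaks of the list (y axis, log scale) against the distance of the centre from the nearest protein-coding transcript start (x axis, bp), with the number of peaks at each point. OLG (red circles) lies above OPC (blue squares) in each bin, at 20.5 against 15.5 in the first 250 bp and 2.10 against 0.500 from 5001 to 10000 bp.

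The 5 members nearest to their start codon illustrate peaks that straddle the boundary of the coding sequence. In OLG they were in Ppwd1, Txnrd3 (a thioredoxin reductase gene), Ints6 (a subunit gene of the Integrator complex), Lrch1 and Cep120 (a centrosome gene), with centres 0 to 5 bp downstream of the start codon and 21 to 457 bp from the nearest transcript start. In OPC they were in Acot9, Mfap1a, Sik1, a gene of a salt-inducible kinase, Esyt2, and Pou3f2, a neural POU-domain factor, at 0 to 2 bp from the start codon and 122 to 755 bp from a transcript start. Smad6, which encodes an inhibitory Smad, and Ylpm1 were also among the OLG peaks 5 bp from the start codon.

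At the other end, some peaks lay in coding exons far inside long genes. The OLG peaks farthest from the start of their transcript were in Iqschfp (602825 bp), Kcnn2 (290687 bp), Kif6, a kinesin gene (280633 bp), Acoxl (268418 bp) and Samd4b (184008 bp). The OPC ones were in Nckap5 (805136 bp), Kcnn2 (290648 bp), Dst, a cytoskeletal linker gene (281898 bp), Acoxl (268362 bp) and Zfp423, a zinc finger gene (177421 bp). Such distances depend on the transcript chosen. The Kcnn2 peaks, in a gene of a calcium-activated potassium channel, were 462 bp (OLG) and 501 bp (OPC) from another annotated start of the same gene, and lay in its first coding exon. The Nckap5 peak was 2393 bp from another start, whereas the Kif6 peak, in coding exon 19 of 23, was 198527 bp from the nearest start.

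Beyond 1 kb from a start, long exons held more peaks than short ones for their size. Coding exons over 1000 bp had 7.31 peaks per Mb in each list, 35 peaks in both cases, and exons of 301 to 1000 bp had 5.44 OLG and 4.35 OPC peaks per Mb. In exons of 1 to 150 bp, which hold 11.4 Mb of coding sequence at that distance, the density was 1.14 in OLG and 2.02 in OPC. Scaled per 1000 peaks of the list, it was 0.653 in OLG and 0.436 in OPC there. In exons over 1000 bp the scaled density was 4.17 in OLG and 1.57 in OPC. The median length of the coding part of the exon was 690 bp for the OLG members over 1 kb, 416 bp for the OPC members and 180 bp for coding bases at that distance. Of the 86 OLG members over 1 kb, 34.9% lay in middle, 29.1% in last, 17.4% in first and 18.6% in single coding exons. Of the 100 OPC members, 51.0% lay in middle, 17.0% in last, 15.0% in first and 17.0% in single coding exons. Middle exons held 74.5%, last exons 16.9%, single exons 4.43% and first exons 4.17% of the coding bases there. Middle exons thus had fewer members than their length in both lists, and single and first exons more. Examples of last exons far from a start were those of Rax, a homeodomain gene of eye development, in OLG (4060 bp) and of Foxo6 in OPC (18404 bp).

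Genes without introns have their whole coding sequence in a single exon, and a larger share of them than of all genes held a member. Among 1338 genes whose coding transcripts all have 1 exon, 30 had an OLG member and 31 an OPC member, which is 2.24% and 2.32%, against 1.14% and 1.64% of all genes. When all 3375 genes with 1 coding interval were taken, which include 95.4% of the olfactory receptor genes, the shares were 1.16% in OLG and 1.36% in OPC. Leaving the olfactory receptors out gave 1.70% of 2292 genes in OLG and 2.01% in OPC. Not one of the 1135 olfactory receptor genes held a member in either list. Their coding sequence had a median GC of 43.9%, against 51.9% for all genes.

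The intronless genes with a member included regulators as well as genes of general function. In OLG the peak centre lay 27 bp from the start codon in Insm2, a zinc finger gene, 36 bp in Riox1, a ribosomal oxygenase gene, 55 bp in Hps6, a gene of lysosome-related organelles, and 103 bp in the Wnt receptor gene Fzd10. In OPC it lay 2 bp away in Pou3f2, 20 bp in the histone gene Hist2h2ac, 73 bp in Cebpd, a leucine zipper factor, and 219 bp in Foxd3, a forkhead gene of the neural crest. Jun, the AP-1 subunit gene, held 2 OPC peaks, centred 120 and 698 bp from its start codon. Taken by the transcript at the centre, 33 OLG and 34 OPC peaks lay in a transcript with 1 exon. These include Ntng1 and Rnf8 in OLG and Ank2 and Kctd16 in OPC, which also have transcripts with introns and are not among the intronless genes counted above.

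Most members lay in GC-rich sequence, with the higher median in OLG. The median GC of the 200 bp around the centre was 68.0% for OLG members and 66.5% for OPC members, against 51.0% for windows centred on coding bases. At least 55% GC was found in 240 OLG members, or 95.2% (91.8 to 97.5), in 313 OPC members, or 85.3% (81.2 to 88.7), and in 34.5% of coding windows. The median number of CpG was 19 in OLG and 18 in OPC, against 4.

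The gap to the annotation held in both distance classes. Within 1 kb of a start the medians were 70.0% in OLG, 68.0% in OPC and 54.5% for coding bases, and over 1 kb they were 61.75% in OLG, 57.0% in OPC and 50.5% for coding bases. Other peaks of the same lists had medians of 67.75% (OLG) and 62.5% (OPC) within 1 kb, and of 50.5% (OLG) and 47.5% (OPC) over 1 kb. Members over 1 kb from a start therefore had a higher median GC than other peaks at that distance, in each list.

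**Figure D3:**
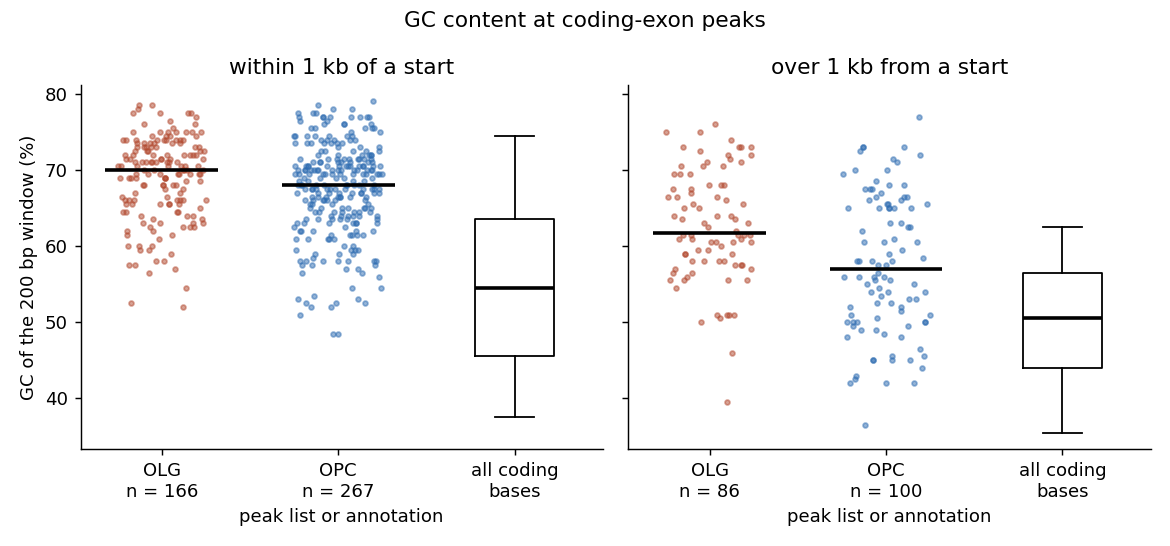
GC content (%) of the 200 bp around the centre of each coding-exon peak within 1 kb of a transcript start (left) and farther away (right), for OLG (red) and OPC (blue), with black lines at the medians. Boxes give the median and quartiles of windows on all coding bases, with whiskers at the 5th and 95th percentiles, and member medians lie above the box medians in each panel, with 61.75% and 57.0% against 50.5% over 1 kb.

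Density increased with GC at either distance from a start. Coding windows over 1 kb away with a GC of 65% or more held 41.5 OLG and 39.1 OPC peaks per Mb, and those of 45 to under 55% held 0.654 OLG and 2.78 OPC peaks per Mb. Between these, at 55 to under 65%, OLG had 43 peaks (4.82 per Mb) and OPC 27 (3.03 per Mb). Within 1 kb and at a GC of 65% or more the density was 109 OLG and 158 OPC peaks per Mb. Under 45% GC, 1 OLG and 7 OPC peaks lay over 1 kb from a start, and 0 of either list within 1 kb. The part that GC content plays in the calling of peaks was not tested.

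The TCAT tract that ZFP24 is known to bind was nearly missing from coding-exon peaks. The tract was a tandem run of at least 12 bases of TCAT, in any phase and on either strand. It lay in the 200 bp window of 0 of 252 OLG members, where the exact interval reaches 1.45% (3 counts of the total are 1.19%). Among other OLG peaks it lay in 100 of 1500, or 6.67% (5.46 to 8.05). The odds ratio was 0 (0 to 0.211, exact adjusted p = 3.72e-07). In OPC it lay in 3 of 367 members, or 0.817% (0.169 to 2.37), against 564 of 4276 other peaks, or 13.2% (12.2 to 14.2), with an odds ratio of 0.0542 (0.0111 to 0.161, exact adjusted p = 1.03e-16). Windows centred on any coding base hold such a tract in 0.0241% of cases. Members are centred on coding bases by rule, so that rule largely decided the outcome of both tests. The OPC share of 0.817% lay above the share of coding windows, a comparison that was not tested. Among windows with at least 55% GC the tract is rare in all peaks, at 0 of 240 OLG members against 5 of 836 others (exact adjusted p = 0.593) and 1 of 313 OPC members against 13 of 1465 others (exact adjusted p = 0.556), and the difference no longer passed the test.

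The coding part of the genome offers few such tracts. Only 10 tracts of 12 bases or more lie wholly in coding sequence, the longest of 14 bases, and another 2 lie partly in it. None of these 12 lay within 100 bp of a peak centre of either list. The tracts of the 3 OPC members printed above belonged to the neighbouring introns. In 2010111I01Rik the tract of 31 bases (chr13:63156797-63156827) had 61 bases between it and the exon, in Prickle4 the 25 bases (chr17:47689509-47689533) had 22, and in Sbno1 the 24 bases (chr5:124405489-124405512) had 56. They lay 68 to 93 bp from the peak centre, in windows of 42.5 to 58.0% GC, below the OPC median. The tracts of 2010111I01Rik and Sbno1 reached the edge of the peak, where the search ended. Their 31 and 24 bases are therefore minimum lengths, and their distances refer to the part inside the peak. OLG peaks overlapped the OPC peaks at 2010111I01Rik and Prickle4. The OLG peak at Prickle4 ended at 47689508, the base before the tract, and that at 2010111I01Rik ended at 63156732, also before the tract.

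Some lists of transcription factor genes held members in a larger share of their genes than all genes did, on small counts. The gene lists used here are described by their counts, and the shares over all 21755 genes were 1.14% in OLG and 1.64% in OPC. Of 45 regulators of the oligodendrocyte lineage, 2 held an OLG member and 4 an OPC member (4.44% and 8.89%). In OLG they were Sox4, with its centre 708 bp from the start codon, and Zeb2, a repressor needed for myelination, 207 bp from a transcript start. The Zeb2 centre lay in coding exon 2 of the longest coding sequence, but in the first coding exon of a transcript annotated as principal. In OPC they included Id4, an inhibitor of bHLH factors (352 bp from the start codon), Olig1 (275 bp) and Sox2 (600 bp). The windows of the 5 peaks named had 57.5 to 67.5% GC.

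Among 165 genes named for the SOX, FOX, bHLH and T-box families, 4 held an OLG member (2.42%) and 12 an OPC member (7.27%). The OLG genes were Atoh8, Foxa2, Sox4 and Tbx21, the gene of T-bet. The OPC genes included the forkhead genes Foxd2, Foxd3, Foxd4, Foxo6 and Foxq1, the bHLH genes Neurod1, Myc, Olig1 and Id4, and Mlxip, with 2 peaks. Of 179 homeodomain genes, 5 held a member in each list, or 2.79%. These were Alx4, Evx2, Pou3f3, Rax and Six5 in OLG, and included Gsx1, Hhex, Pou3f2 and Pou4f3 in OPC. Genes of these families have GC-rich coding sequence, with medians of 62.0% for SOX, FOX, bHLH and T-box genes and 61.9% for homeodomain genes against 51.9% for all genes, and the part of GC in their counts was not tested.

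C2H2 zinc finger genes, the family of ZFP24 itself, had a member in 11 of 552 cases in OLG (1.99%) and in 12 in OPC (2.17%), closer to the shares of all genes than the lists above. The OLG ones included Klf10, Klf13 and Klf14, Insm1 and Insm2, Zbtb10 and Zbtb11, and Zic2. The OPC ones included Zic2 and Zic5, Klf5, Sp9, Insm2 and Zfp423. One OPC gene matched by name, Zfp36l1, encodes an RNA-binding protein with another kind of zinc finger.

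Signalling and progenitor genes gave a few members each. Of 61 genes in the list of Notch, Wnt and BMP signalling, 3 had an OLG member (4.92%), namely the Wnt receptor gene Fzd10, Axin1, a scaffold of the complex that degrades beta-catenin, and Smad6. The 4 OPC genes (6.56%) were Dll3 and Jag2, both Notch ligands, and Maml1 and Maml2, coactivators of Notch. No Wnt receptor was among the OPC genes and no Notch ligand among the OLG genes, a difference that was not tested. Few genes with a member were shared in general, at 14.5% of all OLG genes and 10.1% of all OPC genes. Of 24 progenitor markers, Bcan, which encodes the matrix proteoglycan brevican, and Ednrb, an endothelin receptor gene, held an OLG member (8.33%), and Olig1 an OPC member (4.17%). The Bcan peak (chr3:87992963-87993183) lay in coding exon 7 of 13, 7157 bp from a start, and the Ednrb peak (chr14:103817069-103817289) in the last coding exon, 26516 bp from a start.

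Among 39 myelin genes the member in OLG was Bcas1, a marker of oligodendrocytes that begin to myelinate, and those in OPC were Bcas1 and Nfasc, which encodes the adhesion protein neurofascin. Bcas1 had 1 OLG peak (chr2:170406254-170406474) and 2 OPC peaks. The OLG peak and an OPC peak (chr2:170406615-170406823) lay in its coding exon 3, 14298 and 13943 bp from the start codon, without overlap. The other OPC peak was in coding exon 10. None of the coding exons of the remaining 37 myelin genes held a peak centre of either list. The genes named are 2.56% of the list in OLG and 5.13% in OPC, against 1.14% and 1.64% of all genes. Few genes are thus due in a list of this size, and a lack of members in myelin genes is not shown.

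Lists of general cell functions held more genes in OPC than in OLG, as did the annotation as a whole. Of 50 splicing and RNA-binding genes, 0 held an OLG member and 4 an OPC member (8.0%), and the 4 were Hnrnpa1, Sfpq, Srsf2 and Srsf6. Of 99 histone genes, 1 held an OLG member (1.01%) and 5 an OPC member (5.05%). Of 45 cytoskeletal genes, the tubulin gene Tubb2a held an OLG member (2.22%), and Ank2, Dst, Macf1 and the tubulin gene Tubb5 held OPC members (8.89%). Of 84 ribosomal protein genes, 0 held an OLG member and 2 an OPC member (2.38%), Rpl8 with 2 peaks and Rpl10a. Cell cycle genes gave Wee1 in OLG (2.27%) and Ccnd3 and Rbl2 in OPC (4.55%), of 44. Histone, tubulin and ribosomal protein genes have near-identical copies elsewhere in the genome, and the treatment of reads that map to several copies was not given in the sources used here. A count of 0 in a list of this size allows shares well above that of all genes, so the lists of OLG with no gene are not shown to lack them.

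**Figure D4:**
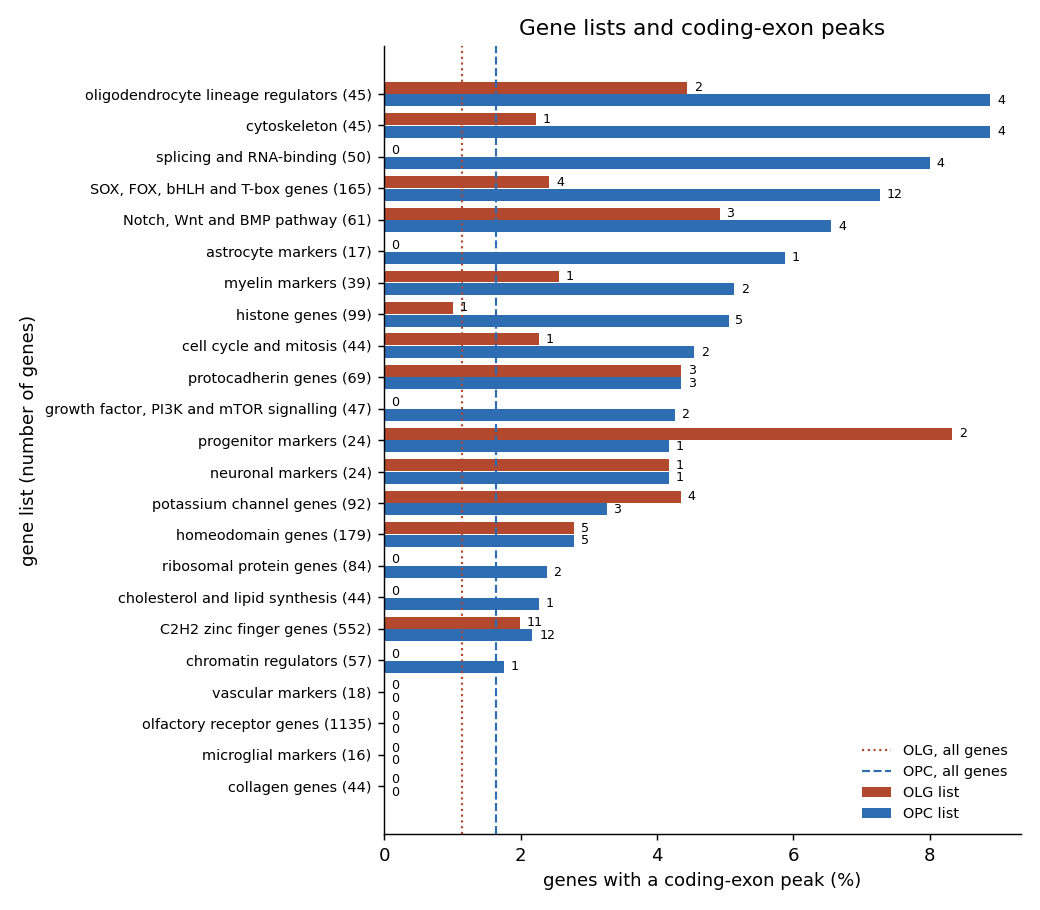
Share of the genes in each list (%, x axis) with a coding-exon peak in OLG (red) and OPC (blue), with the number of genes beside each bar and the size of the list in parentheses. Vertical lines mark all genes, 1.14% in OLG (dotted) and 1.64% in OPC (dashed). OPC bars reach 8.89% for lineage regulators and cytoskeletal genes, and olfactory receptor and collagen genes are at 0 in each list.

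Channel and adhesion genes had members in both lists. Of 92 potassium channel genes, Kcnh3 (2 peaks), Kcnk18, Kcnn2 and Kcns1 held OLG members (4.35%) and Kcnd2, Kcnk13 and Kcnn2 OPC members (3.26%). Of 69 protocadherin genes, Pcdh10, Pcdh17 and Pcdhb18 held OLG members, and Pcdh10, Pcdh18 and Pcdhga10 OPC members, or 4.35% each. Protocadherins have a very long first or single coding exon, of 2376 to 2631 bp in the 5 genes named. Lists of growth factor signalling, chromatin and lipid synthesis genes had 0 genes in OLG. In OPC they gave Eif4ebp1 and Irs2, both of the insulin pathway, Eed, a Polycomb subunit gene, and Cers6, a ceramide synthase gene. Of markers of other brain cells, the neuronal gene Nefl, of 24, held a member in both lists and the astrocyte-enriched transporter gene Slc4a4, of 17, in OPC. The 16 microglial and 18 vascular markers had 0 in either list, as did 44 collagen genes. With 1.14% of all genes in OLG and 1.64% in OPC, lists this small can give 0 genes. The counts therefore show no difference between these cell types.

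Some genes held several members in 1 list. In OLG there were 4 of 248, Cog1, Skida1, Cdk13 and Kcnh3, each with 2 peaks. In Cdk13, a kinase gene of transcription elongation, both lay in its first coding exon, 392 and 927 bp from the start codon. In OPC there were 9 of 357, with 3 peaks in Cpd, a carboxypeptidase gene, and 2 each in Jun, Bcas1, Slc3a2, Mlxip, Kctd1, Soga3, Rpl8 and Cpeb3.

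A minority of the members lay at the same place in both cell types. Of the OLG members, 33 of 252 overlapped an OPC peak by at least 1 bp (13.1%, 9.19 to 17.9), and 33 of 367 OPC members overlapped an OLG peak (8.99%, 6.27 to 12.4). Among peaks centred elsewhere the shares were 14.7% in OLG and 5.17% in OPC. These overlaps are given as description only, since the lists may share their input control. By gene, 36 had a member in each list, which is 14.5% of the OLG genes and 10.1% of the OPC genes.

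At 24 of these sites both centres were coding, each time in the same gene, and in 16 of them in the first coding exon. First coding exons held 56.3% of all OLG and 60.8% of all OPC members. The centres were a median of 71.5 bp apart, from 0 bp in Ylpm1 to 159 bp in Pde8b. The OLG centre was the farther downstream in 13 of the 24, so neither list was regularly the nearer to the start codon. At Zic2 the OLG centre lay 329 bp and the OPC centre 414 bp from the start codon, at Nrg3, a neuregulin gene, 392 and 460 bp, and at Nefl 553 and 599 bp. At Dact1, a modulator of Wnt signalling, they lay 317 and 228 bp away, and at Aebp2, a Polycomb-associated zinc finger gene, 451 and 413 bp. The median GC at the 24 sites was 71.5% at the OLG centre and 68.0% at the OPC centre.

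**Figure D5:**
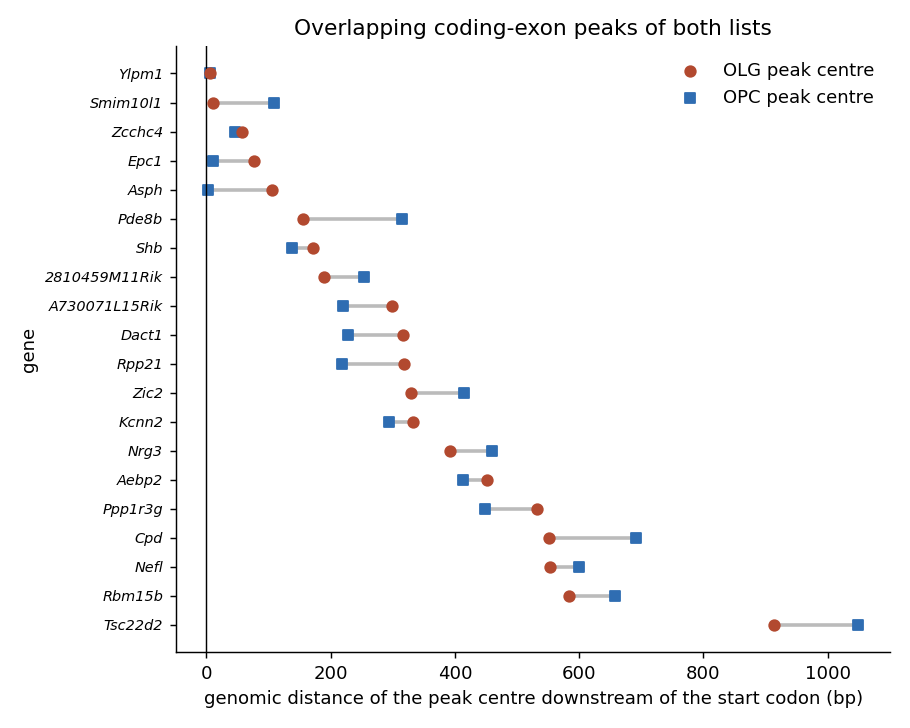
Genomic distance of the peak centre downstream of the start codon (bp, x axis) for OLG (red circles) and OPC (blue squares) at the 20 overlapping sites under 2000 bp from it, each joined by a line and named by gene (y axis). The centres coincide at Ylpm1, 5 bp from the start codon in both lists, and are farthest apart at Pde8b, at 155 bp in OLG and 314 bp in OPC.

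Of the 24 sites, 5 were in middle or last coding exons, those of 2010111I01Rik, Rpp21, Prickle4, Acoxl and Ttc36, and 2 of these are the tract-bearing ones. Among all members 26.2% in OLG and 25.9% in OPC lay in such exons, so the 5 sites do not set the overlapping sites apart. In 12 further genes both lists had a member without overlap. In Pcdh10 the OLG centre lay 1246 bp and the OPC centre 1985 bp from the start codon, within 1 exon of 2631 bp. In Insm2 they lay 27 and 971 bp away, and in Frat1, a regulator of Wnt signalling, 468 and 218 bp. In Man2c1 they were in different exons, in exon 24 of 26 in OLG and in exon 1 in OPC. At 9 OLG members the overlapping OPC peak was centred outside coding sequence, and at 9 OPC members the overlapping OLG peak was.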

How the data were processed

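The deposited files were 2 lists of peak positions (chromosome, start, end and name), without score or count, 1 for OLG and 1 for OPC. Positions are in units other than a signal, so only numbers of peaks were compared. Reads were aligned to mm10 and peaks made with BWA (version not given) and HOMER 4.8.3, per the submitters' processing notes. Calling options, thresholds and the use of null and input libraries were not given in the sources used here. A deeper library can list more peaks.

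Coordinates, given 1-based, were set against GENCODE M21 basic and GRCm38.p6, where 20 of 20 chromosome names matched and 0 peaks ran past an end. Each coding base and each peak centre was assigned to the transcript with the longest coding sequence there. Distances were taken from the centre to the nearest protein-coding transcript start, and GC, CpG and TCAT tracts (at least 12 bases) from the 200 bp around the centre. Shares were compared by Fisher's exact test, two-sided, with Benjamini-Hochberg adjustment over 8 tests and a threshold of 0.05, and a limit for a count of 0 is 3 counts of the total. Groups came from the submitters' descriptions. Of 509 listed symbols, 509 matched, in 14 lists, and 9 further lists were formed by name pattern.

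Named genes were those of overlapping sites, of tracts, with several members, without introns, in a list, and the 5 nearest to and farthest from starts, with at most 15 per kind. Some genes that the rule names are left out of the text. Members, lists and tests were chosen with earlier results of these data known. Alternatives covered the member rule, principal transcripts, distances, tract lengths, shared peaks and peak numbers, and 2 were added after seeing the data. Of the steps, only the tract search was tested on simulated sequences. Python 3.11.15, numpy 2.4.6, scipy 1.17.1, pandas 2.3.3 and matplotlib 3.10.9 were used.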

Additional observations from a re-analysis of the deposited data

How the results depend on the processing

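Over 55 recalculations of the 8 tests, 48 kept their direction and their side of the threshold, 5 lost the call, 2 gained one and 0 reversed. The 48 include TCAT settings, whose outcome the member rule largely decided. They also include settings of tests that had not passed at first and still did not, so the tally is no measure of robustness. The coding-exon share of all peaks (odds ratio 1.34 to 2.08 over 6 settings) and that over 1 kb from a start (2.41 to 3.27 over 8) passed in each, and the single-exon share (1.34 to 1.48 over 7) passed in none. The share within 1 kb of a start lost its call with a distance of 500 bp (1.23, exact adjusted p = 0.136), with the lower-numbered part of each list (1.26, adjusted p = 0.161) and with peaks of 55% GC or more (1.10, adjusted p = 0.527). The last setting, chosen after seeing the data, also ended the TCAT calls in OLG (0, exact adjusted p = 0.593) and OPC (0.358, adjusted p = 0.556), and gave calls for the first-exon share (0.643, adjusted p = 0.0263) and for the members within 1 kb (0.492, adjusted p = 0.00186). It leaves few tracts to compare, and otherwise the cause was not tested. Leaving out peaks with a TCAT tract, also added later, changed no call. An overlap of 50% of the shorter peak left 26 overlapping members in each list in place of 33. The number in the peak name has no stated meaning. Depth, calling options and read placement are unknown, which limits any comparison of list sizes. No paired analysis was possible because each group has 1 library and the labels give no replicate numbers.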
